A study of Homo sapiens with 9 samples.

Results

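Small interfering RNAs against the same gene, siCDO1C and siCDO1A, were compared in VCaP cells, which are an established prostate cancer cell line. The comparison took the 3 libraries labelled siCDO1C and the 3 labelled siCDO1A, 6 of the 9 libraries of the series, and left out the 3 siCtrl libraries, which received a control siRNA. All groups were grown in the same medium with fetal bovine serum and 2 nM DHT, an androgen, and differed in the siRNA. The labels call the samples biological replicates and give each a batch number equal to its replicate number. VCaP is a single line, so that p-values measure the spread between its cultures.

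CDO1, cysteine dioxygenase type 1, oxidises cysteine to cysteine sulfinic acid and so leads cysteine towards taurine and away from glutathione. An siRNA guides an Argonaute protein to messenger RNA that it pairs with along its length. It can also lower other messenger RNAs whose 3′UTR, the untranslated end, pairs only with a short seed stretch near the 5′ end of its guide strand.

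The libraries held from 12061295 to 15239414 counts, and 3 counts corresponded to at most 0.249 CPM. Levels are given as CPM, the count of a gene scaled to the total of its library, after TMM normalization. The level of 3 counts and the cell type markers that follow were scaled to the total alone. Of 12 markers of VCaP and luminal prostate cells, 11 were above 10 CPM in every one of these libraries, and AMACR lay between 7.15 and 10.9 CPM. Of 12 markers of other cell types, 5 (PTPRC, CD3E, PECAM1, COL3A1 and DCN) stayed under 1 CPM and 2, the neuroendocrine genes CHGA and SYP, lay above 10 CPM. The summed level of these 12 was 140.2 to 165.5 CPM with siCDO1A and 143 to 153 CPM with siCDO1C. One library stood furthest apart, along an axis that also spread the siCDO1A libraries. On the first principal component of these libraries (41.1% of the variance over 11337 genes), siCDO1C replicate 2 lay at -16.5. The other siCDO1C libraries lay at 9.29 and 12.8, and siCDO1A replicates 1 to 3 at -6.76, -4.55 and 5.76. The slope of the log2 level per 10% of GC content also differed within groups. It was 0.0691, 0.0757 and -0.0403 in siCDO1A replicates 1 to 3 and 0.0255, -0.014 and -0.0276 in siCDO1C replicates 1 to 3. The second component (24.98%) had the siCDO1C libraries at -11.7 to -5.11 and the siCDO1A libraries at 5.23 to 8.89. The biological coefficient of variation was 7.09% within siCDO1A, 10.8% within siCDO1C and 4.52% within siCDO1C without its replicate 2. The main results are therefore given with and without that library, which was picked on its values in these data. In the fit without it, both remaining siCDO1C libraries lie above all siCDO1A libraries on the first component. That fit cannot separate the siRNA from this component, wherever its calls are given below.

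The target itself was low with both siRNAs. CDO1 (chromosome 5, 115804733 to 115816954, GRCh38) was at 3.28, 2.05 and 2.18 CPM in siCDO1A replicates 1 to 3, at 1.10, 2.81 and 1.16 CPM in siCDO1C replicates 1 to 3 and at 14.2, 14.1 and 13.7 CPM in the siCtrl libraries. The siRNA groups overlapped, since siCDO1C replicate 2 lay above siCDO1A replicates 2 and 3. The log2 fold change of siCDO1C against siCDO1A was -0.56 (SE 0.35, adjusted p = 0.826) in the quasi-likelihood test of edgeR, and a two-sided exact permutation test of CPM gave p = 0.3, where 3 libraries against 3 cannot give less than 0.1. Without siCDO1C replicate 2 the log2 fold change was -1.14 (adjusted p = 0.0815). A difference in CDO1 between the siRNAs was thus not detectable with these libraries.

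Beyond the target, 69 of 15555 genes tested differed between the siRNAs, which is 0.444% of them, at an adjusted p of at most 0.05. With siCDO1C, 38 of them were higher (0.244%) and 31 lower (0.199%). All but 1 of the 69 genes are protein-coding, the exception being the long noncoding RNA NKILA. The differences were moderate, from -1.31 (GPR27) to -0.35 (PMEPA1) among the lower genes and from 0.38 (IGFBP3) to 0.96 (PLEKHA3) among the higher ones, on the log2 scale. In all 69 genes the groups of 3 libraries did not overlap, as was the case in 12.7% of all genes tested. The same sign within each of the 3 batch numbers, found in 29.3% of all genes tested, follows from this and is no further evidence. With the batch number as a block 121 genes differed, including all 69. Without siCDO1C replicate 2 there were 447 (2.87% of genes tested), again including all 69, with 247 higher (1.59%) and 200 lower (1.29%).

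Sequence words shared by messenger RNAs of these genes are shown first. They were unevenly spread between the higher and the lower genes, with exceptions on both sides. All words of 7 bases were looked for, on the messenger strand, in the annotated 3′UTRs (GENCODE) of 12964 genes tested, which included 30 of the 31 lower and all 38 higher genes. Words were ordered by the log2 fold change, siCDO1C minus siCDO1A, of genes with the word against genes without it, after trends with 3′UTR length and GC content were removed, weighted by the square root of the number of genes with the word. This order was chosen after the data were seen, and the order without these steps is also given. Of 13798 words in the 3′UTRs of at least 300 genes, ACATCAA came lowest, followed by CATCAAA, which overlaps it by all but 1 base, and GTAAAAC came highest. The words were chosen on the same fold changes, so that their values are descriptions without a test.

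ACATCAA was present in 12.7% of all 3′UTRs examined (1647 genes), in 17 of the 30 lower genes (56.7%) and in 5 of the 38 higher genes (13.2%). CATCAAA was present in 15.6% of all 3′UTRs, in 19 of the 30 lower genes and in 7 of the 38 higher genes. Either word was found in 21 of the 30 lower genes, against 21.4% of all 3′UTRs. The first site of ACATCAA in lower genes is printed with 10 bases on each side and the word in capitals, for lower genes among those with the smallest p and for CREB3L2, a factor of the endoplasmic reticulum (ER).
MOB1A: attctattctACATCAAaaatagtttg
DAZAP2: tagtaataaaACATCAAattaggtttg
GPR27: gcagagtactACATCAAaattgtttta
MDK: actaagaaacACATCAAataaactgac
SLC25A30: gtgcccttcaACATCAAagataatatg
SLC7A11: taaaatttagACATCAAattttcctac
CREB3L2: gagtgcaatcACATCAAaaaaacaacc
In the genes shown the word is followed by an a, which completes CATCAAA as well. The other lower genes with ACATCAA were GSR, AGPAT5, CCDC113, SLC16A14, LETM1, CPLX1, PPP3CA, GPCPD1, RNF149 and SFXN1. Lower genes with a 3′UTR that holds neither ACATCAA nor CATCAAA were ADM2, DDIT3, EPHA8, PC, PMEPA1, RTL8B, RTL8C, SLC45A3 and TMEFF2. TACATCA, which overlaps ACATCAA by all but 1 base, came in place 3 from the lowest. It was present in 11.2% of all 3′UTRs, in 10 of the 30 lower genes, with RTL8B and RTL8C among them, and in 8 of the 38 higher genes.

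GTAAAAC was present in 15.7% of all 3′UTRs examined (2032 genes), in 22 of the 38 higher genes (57.9%) and in 3 of the 30 lower genes. Its first site is printed in the same way for higher genes with a small p.
PLEKHA3: atagaatgttGTAAAACagacaaacaa
FSTL1: ctatttctctGTAAAACactttttttt
TPM3: aagcatcagaGTAAAACatttgtcccc
MIGA1: tccctggaatGTAAAACaaaaatattt
ATP6AP2: tgaaagaaatGTAAAACatttagaata
CDK2: tgagaaccaaGTAAAACaaaaccactg
PRDX1: ttttccattaGTAAAACacaagacttc
The 3′UTRs of MIGA1, BMPR1A and LIFR hold the word at 3 sites each. Among the higher genes without GTAAAAC were PAFAH1B2, RABGAP1, MGAT4A and GPR137B, and their 3′UTRs hold AAGGTTC, which followed GTAAAAC and TAAAACA among the highest words. TAAAACA overlaps GTAAAAC by all but 1 base. AAGGTTC was present in 9.87% of all 3′UTRs, in 11 of the 38 higher genes (28.9%) and in 3 of the 30 lower genes.
PAFAH1B2: caatttttttAAGGTTCataatttagc
RABGAP1: aatttcactcAAGGTTCattgggctct
MGAT4A: gcgctggggcAAGGTTCcagctggctg
GPR137B: ttttttttttAAGGTTCaggccgtagg
GTAAAAC or AAGGTTC was found in 29 of the 38 higher genes and 6 of the 30 lower genes, against 22.8% of all 3′UTRs. The higher genes with neither were NOV, SDC2, TBPL1, PLA2G2A, STX12, IHH, PLK2, IGFBP3 and SLC7A14. The lower genes with GTAAAAC were SLC25A30, AGPAT5 and TMEFF2. Long 3′UTRs hold more words of any kind. The median 3′UTR length was 2747 bases in lower genes, 2178 in higher genes and 1537 in all genes examined. With genes divided into 3 equal groups by 3′UTR length, the median log2 fold change was higher in genes with GTAAAAC than in those without it, at 0.037 against -0.030 in the shortest group, 0.052 against -0.012 in the middle group and 0.049 against 0.014 in the longest. For ACATCAA the corresponding medians were -0.070 against -0.026, -0.027 against -0.001 and 0.008 against 0.026.

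The CDO1 transcript was searched for the words and their reverse complements. It holds ACATCAA once, at bases 657 to 663 of 1565, in the coding sequence, and with it TACATCA, at bases 656 to 662. It also holds AAGGTTC once, at bases 896 to 902, in the 3′UTR, and the reverse complement of GTAAAAC, which is GTTTTAC, once, at bases 886 to 892. These lie 3 bases apart and are printed together, with 5 bases on each side and both in capitals.
CDO1 coding sequence: cagtgtgcctACATCAAtgattccatt
CDO1 3′UTR: ctgagGTTTTACtttAAGGTTCgctgt
GTTTTAC was present in 16.6% of all 3′UTRs. The transcript does not hold CATCAAA, nor GTAAAAC as written. The sequences of the siRNAs are not in the sources used here, so that a pairing of any word with an siRNA was not tested.

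The libraries were then taken singly. In each, the log2 level of every gene was set against the siCtrl mean, trends with 3′UTR length and GC content were removed, and the mean of genes without a word was subtracted from that of genes with it. For ACATCAA this difference was -0.0433, -0.0447 and -0.0328 in siCDO1C replicates 1 to 3 and 0.0043, 0.0031 and 0.0087 in siCDO1A replicates 1 to 3. The 3 siCDO1C libraries lay below all other libraries, replicate 2 included. For GTAAAAC the difference was -0.0273, -0.0272 and -0.0352 in siCDO1A replicates 1 to 3 and -0.0020, 0.0020 and -0.0003 in siCDO1C replicates 1 to 3. Here the 3 siCDO1A libraries lay below all others. The siCtrl libraries lay between -0.0054 and 0.0039 for both words.

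**Figure D1:**
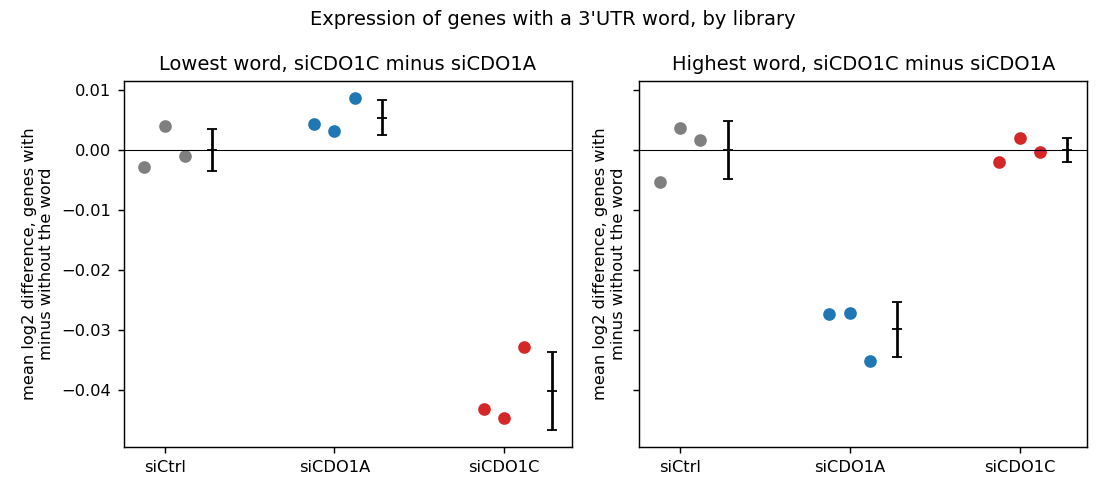
For each library (points, by siRNA), the y axis shows the mean log2 level, relative to the siCtrl mean, of genes whose 3′UTR holds a word minus that of genes without it, after trends with 3′UTR length and GC content were removed. Left, ACATCAA. Right, GTAAAAC. Black bars show the mean and SD of 3 libraries. Only siCDO1C lies low on the left (-0.0447 to -0.0328) and only siCDO1A on the right (-0.0352 to -0.0272).

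Set against siCtrl in the same way, ACATCAA and CATCAAA came second and first from the lowest of the 13798 words with siCDO1C, and 11890th and 3988th with siCDO1A. GTAAAAC came first from the lowest with siCDO1A and 8348th with siCDO1C. These comparisons share the siCtrl libraries with each other and a siRNA group with the direct comparison. The shift was small in most genes. Genes with GTAAAAC and not ACATCAA had a median log2 fold change of 0.05, siCDO1C minus siCDO1A, with 32.9% of them below 0. Genes with ACATCAA and not GTAAAAC had a median of -0.02 with 56.2% below 0, and genes with neither word a median of -0.01 with 53.1% below 0.

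**Figure D2:**
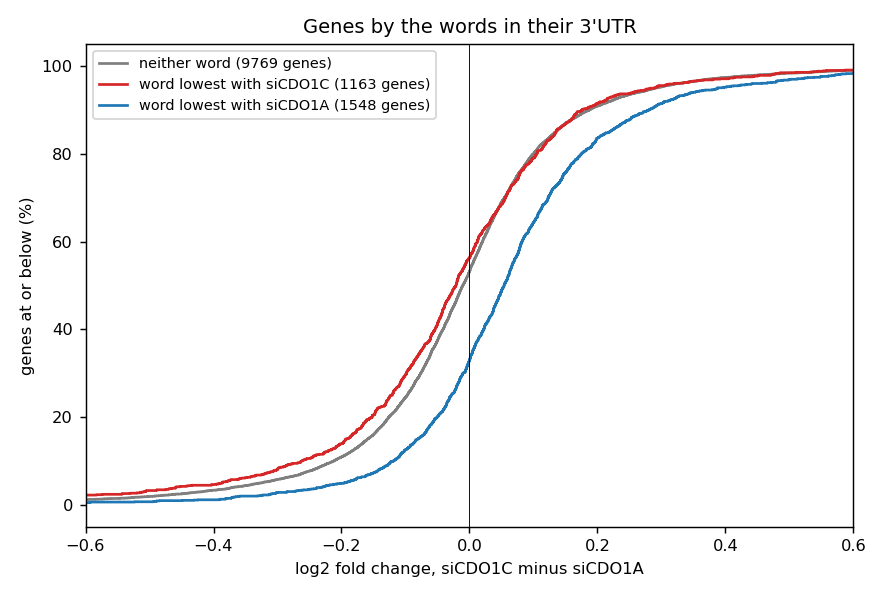
Cumulative share of genes (y axis, percent) by log2 fold change, siCDO1C minus siCDO1A (x axis, drawn from -0.6 to 0.6), without removal of 3′UTR trends. Blue, 1548 genes whose 3′UTR holds GTAAAAC and not ACATCAA. Red, 1163 genes with ACATCAA and not GTAAAAC. Grey, 9769 genes with neither. The blue curve lies to the right (32.9% of genes below 0, against 53.1% in grey), while the red curve lies to the left of grey among negative values and meets it above 0.

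The order depended on the processing. The words on the reverse strand of CDO1, like the removal of 3′UTR trends and the weighting, were taken up after the data were seen. With neither step, GTAAAAC was still the highest word (mean difference 0.071) and ACATCAA was 775th from the lowest (-0.013). With the trends removed and no weighting, ACATCAA was the lowest and GTAAAAC was in place 4 from the highest. With the weighting alone, ACATCAA was 431st from the lowest and GTAAAAC 126th from the highest. With neither step but trends with GC content and length removed in the fit itself, ACATCAA was the lowest (-0.039) and GTAAAAC the highest (0.042). With neither step and 1 library left out, the place of ACATCAA from the lowest ran from 13 (-0.032, without siCDO1A replicate 2) to 3517 (0.023, without siCDO1A replicate 3). With neither step, in the fit of all 6 libraries, the lowest words were rich in G and C, such as CCCGCGC (-0.054), which 2.41% of 3′UTRs and 1 of the 30 lower genes held.

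Among the lower genes, GPR27 (chromosome 3, 71754050 to 71756496), an orphan G protein-coupled receptor, had the largest difference. It was at 12.6, 11.3 and 11.7 CPM in siCDO1A replicates 1 to 3, at 3.22, 5.78 and 5.45 CPM in siCDO1C replicates 1 to 3 and at 10.9, 12.3 and 11.2 CPM in siCtrl. Its level with siCDO1A was thus close to that in siCtrl, and every siCDO1C library was lower. The log2 fold change was -1.31 (SE 0.186, adjusted p = 0.00213), or 2.48-fold lower with siCDO1C. RTL8C (chromosome X, 135032366 to 135033546), a gene derived from a retrotransposon, went from 42.7, 42.5 and 39.5 CPM with siCDO1A to 20.3, 24.1 and 18.6 CPM with siCDO1C, with siCtrl in between at 35.5, 29.9 and 35.8 CPM. Its log2 fold change was -0.99 (SE 0.109, adjusted p = 0.000175). Its neighbour in the family, RTL8B, was also lower, at -0.58 (SE 0.106, adjusted p = 0.0152), and the reads of these near-identical copies could be split between them.

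MOB1A (chromosome 2, 74152528 to 74178898), which activates the LATS kinases of the Hippo pathway, was at 107, 97.3 and 112 CPM with siCDO1A, 52.8, 57.4 and 61.6 CPM with siCDO1C and 130.5, 123 and 116 CPM in siCtrl. The siCDO1C libraries lay far below both other groups, and the log2 fold change between the siRNAs was -0.89 (SE 0.091, adjusted p = 0.00015). DAZAP2 (chromosome 12, 51238292 to 51271362) was at 149, 143 and 159 CPM with siCDO1A and 76.7, 99.1 and 87.2 CPM with siCDO1C, a log2 fold change of -0.78 (SE 0.0942, adjusted p = 0.000476). The siCtrl libraries, at 179, 166 and 167 CPM, lay above both. MOB1A was the only called gene of 27 tested Hippo pathway genes and YAP targets (median 0.04). LATS2, for example, was at -0.36 (SE 0.102, adjusted p = 0.214).

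The genes of cysteine use and glutathione were given attention because CDO1 consumes cysteine. GSR (chromosome 8, 30678061 to 30727999), glutathione reductase, which restores reduced glutathione, was at 69.5, 72.1 and 77.9 CPM with siCDO1A, at 33.6, 43.4 and 37.2 CPM with siCDO1C and at 80.2, 85.2 and 74.6 CPM in siCtrl. Only the siCDO1C libraries were low, with a log2 fold change between the siRNAs of -0.95 (SE 0.102, adjusted p = 0.00015). SLC7A11 (chromosome 4, 138164097 to 138242349), the cystine-importing subunit of system xc-, was at 24.2, 23.3 and 28.02 CPM with siCDO1A, 14.8, 12.3 and 16.3 CPM with siCDO1C and 43.6, 43 and 38.4 CPM in siCtrl. It was therefore below siCtrl in every siRNA library and lower again with siCDO1C, by -0.80 (SE 0.126, adjusted p = 0.0043). Without siCDO1A replicate 3 the log2 fold change was -0.70 and the call was lost (adjusted p = 0.0877). GSR was the only called gene among 25 tested genes of cysteine, taurine and glutathione metabolism, whose median log2 fold change was -0.013, against -0.005 over all genes tested. CHAC1, which degrades glutathione and was singled out after its values were seen, was at -1.06 (SE 0.244, adjusted p = 0.0804). SLC7A11 was the only called gene among 18 cystine and amino acid transporters (median -0.04). Its partner SLC3A2 was at -0.29 (SE 0.0974, adjusted p = 0.368). Of 25 targets of NRF2, the regulator of antioxidant genes, SLC7A11 was lower and PRDX1, a peroxiredoxin, higher, with a median of -0.06. PRDX1 was at 92.6, 85.4 and 74.6 CPM with siCDO1A and 113, 142 and 119 CPM with siCDO1C, a log2 fold change of 0.56 (SE 0.101, adjusted p = 0.0143). None of 28 ferroptosis and iron genes was called (median -0.01). Without siCDO1C replicate 2 the medians of these lists were -0.10 for cysteine, taurine and glutathione metabolism, -0.03 for the transporters, -0.12 for NRF2 targets and -0.07 for ferroptosis and iron. The calls were then GSR and CHAC1 lower and SLC6A6 higher in the first list, SLC7A11, SLC1A4 and SLC3A2 lower in the transporters, SLC7A11, EPHX1, PGD and FTL lower and PRDX1 higher in NRF2 targets, and STEAP4, STEAP1 and FTL lower in the last, where 2.87% of all genes tested were called.

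**Figure D3:**
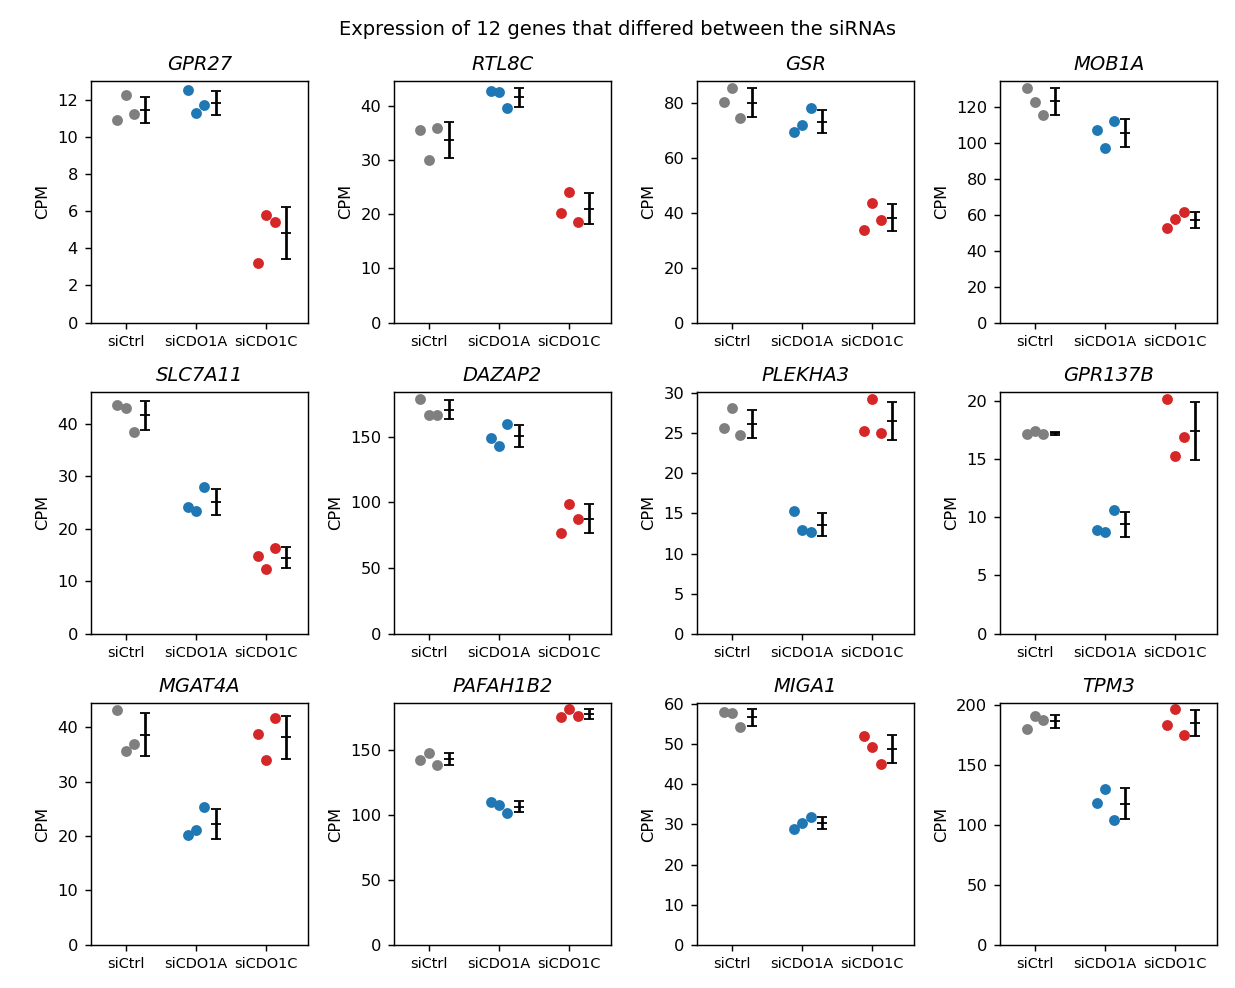
TMM-normalized CPM (y axes, each from 0) of 12 genes in every library, by siRNA. Points are libraries and black bars the mean and SD of 3. In the first 6 panels (GPR27 to DAZAP2) siCDO1C is lowest, and in the last 6 (PLEKHA3 to TPM3) siCDO1A is lowest, as in PLEKHA3 with 12.7 to 15.3 CPM against 25 to 29.3 CPM with siCDO1C.

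Of 43 targets of ATF4, the transcription factor of the integrated stress response, 3 were lower with siCDO1C (SLC7A11, DDIT3 and STC2) and none was higher. SLC7A11 stands in this list and in those of NRF2 targets and of transporters. The median log2 fold change of the list was -0.18, against -0.005 over all genes tested, and 14.0% of its members lay above 0, against 48.4% of all genes tested. DDIT3, which encodes the stress factor CHOP, was at 20.2, 21.3 and 16.99 CPM with siCDO1A and 10.3, 15.1 and 11.1 CPM with siCDO1C, a log2 fold change of -0.68 (SE 0.148, adjusted p = 0.0496). STC2, a secreted glycoprotein, was at -0.42 (SE 0.0902, adjusted p = 0.0496). Of the 6 fits with 1 library left out, DDIT3 and STC2 were each called in 1, that without siCDO1C replicate 2, and SLC7A11 in 5. ATF4 itself was at -0.19 (SE 0.0843, adjusted p = 0.598), and at -0.27 (adjusted p = 0.017) without siCDO1C replicate 2. ADM2, a peptide hormone gene outside the list, was at 7.88, 9.24 and 9.32 CPM with siCDO1A and 5.21, 4.34 and 5.36 CPM with siCDO1C, or -0.83 (SE 0.166, adjusted p = 0.0291). Without siCDO1C replicate 2, 12 of the 43 were lower and none higher, where 1.29% of all genes tested were lower.

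ER chaperones and folding factors had a similar position. Of 42 genes, CREB3L2 was called lower and none higher, the median was -0.14, and 11.9% lay above 0. CREB3L2, a transcription factor held in the ER membrane, was at 65.9, 67.1 and 76.01 CPM with siCDO1A and 42.8, 35.1 and 55.1 CPM with siCDO1C, a log2 fold change of -0.66 (SE 0.131, adjusted p = 0.0393). It was called in 2 of the 6 fits with 1 library left out. HSPA5, the chaperone BiP, was at 1396, 1369 and 1317 CPM with siCDO1A, 1008, 1207 and 1064 CPM with siCDO1C and 1582, 1595 and 1609 CPM in siCtrl. Its groups did not overlap, but at -0.32 (SE 0.0831, adjusted p = 0.143) the difference between the siRNAs did not pass the test. CALR was at -0.28 (SE 0.0773, adjusted p = 0.193) and CANX at -0.15 (SE 0.0789, adjusted p = 0.743). With siCDO1C replicate 2 left out, 11 of the 42 passed the test, all lower with siCDO1C (against 1.29% of all genes tested), HSPA5 among them at -0.40 (adjusted p = 0.000354) and CALR at -0.30 (adjusted p = 0.00496). Of 37 genes of ER-associated degradation and UPR sensors, MBTPS2, the site-2 protease, was called higher at 0.48 (SE 0.0895, adjusted p = 0.018) and none lower (median -0.05). Without siCDO1C replicate 2, ERN1 was also called higher and HERPUD1 and XBP1 lower (median -0.07). None of 40 genes of transport from ER to Golgi was called (median -0.05).

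None of 28 genes of cholesterol synthesis was called, while their median was -0.19 and 14.3% lay above 0. At an unadjusted p under 0.05 there were 16 of the 28, where 7.65% of all genes tested had one. HMGCS1, which makes HMG-CoA and was chosen here after its values were seen, was at 575, 574 and 569.5 CPM with siCDO1A and 413, 488 and 469 CPM with siCDO1C, or -0.33 (SE 0.0818, adjusted p = 0.111). STARD4, a sterol carrier in the same list, lay the other way at 0.40 (SE 0.113, adjusted p = 0.206). In the fit without siCDO1C replicate 2, 8 of the 28 were lower and none higher, again against 1.29% of all genes tested. In the libraries taken singly, the median of the list relative to the siCtrl mean was 0.090, 0.126 and 0.026 in siCDO1A replicates 1 to 3 and -0.150, -0.058 and -0.124 in siCDO1C replicates 1 to 3. For ATF4 targets it was -0.069, -0.052 and -0.094 with siCDO1A and -0.302, -0.177 and -0.264 with siCDO1C. The groups did not overlap for either list or for ER chaperones, and siCDO1C replicate 2 was the closest to siCDO1A in all 3. Of all 38 lists, 5 did not overlap between the groups, where 12.7% of single genes tested did not, and no list was tested. The other 2 were fatty acid synthesis, at 0.028 to 0.040 with siCDO1A and -0.029 to 0.007 with siCDO1C, and the interferon response, which was higher with siCDO1C, at -0.114 to -0.001 with siCDO1A and 0.033 to 0.052 with siCDO1C. Neither had a called member.

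**Figure D4:**
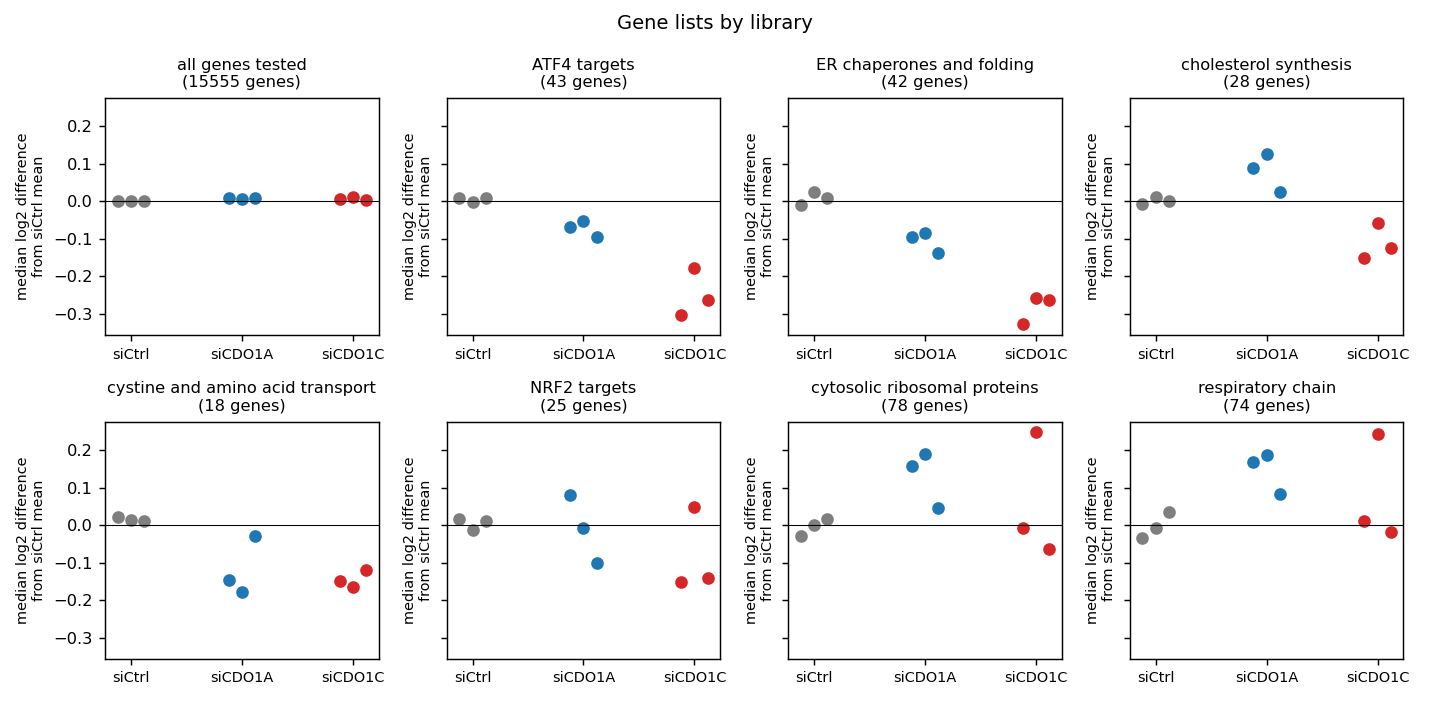
Median log2 difference from the siCtrl mean (y axis) of 8 sets of genes in each library (points, by siRNA). ATF4 targets, ER chaperones and cholesterol synthesis lie lower in all siCDO1C libraries than in all siCDO1A libraries, while in ribosomal proteins and the respiratory chain siCDO1C replicate 2 (0.247 and 0.244) lies apart from the other siCDO1C libraries (-0.063 to 0.011).

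The library that stood apart did so in other lists. The median of 78 cytosolic ribosomal protein genes relative to siCtrl was 0.247 in siCDO1C replicate 2, against -0.007 and -0.063 in the other siCDO1C libraries and 0.045 to 0.189 in siCDO1A, and none of them was called. Their median log2 fold change between the siRNAs was -0.07, with 3.85% above 0. Without that library it was -0.17, and 8 of the 78 were lower (RPL8, RPS14, RPL11, RPS3A, RPL28, RPLP2, RPLP1 and RPS12) and none higher. For 74 respiratory chain genes it was 0.244, against 0.011 and -0.018. Over all 38 gene lists, 27 had no called member. Of the 35 lists with at least 10 members tested, 31 had a median between -0.1 and 0.1. Of the other 4, ATF4 targets, ER chaperones and cholesterol synthesis lay below, and epithelial-mesenchymal transition, with 15 genes, lay above at 0.18, with 86.7% of its members above 0. None of the 15 was called, and 7 had an unadjusted p under 0.05, where 7.65% of all genes tested had one. Of these 7, only TGFBR2, a TGF-beta receptor, was lower, at -0.77 (SE 0.277, adjusted p = 0.426). The median of the list was 0.16 without siCDO1C replicate 2. LTBP1 and THBS1 were then higher and none lower, where 1.59% of all genes tested were higher. LTBP1, which binds latent TGF-beta, was at 99.9, 95.1 and 99.5 CPM with siCDO1A and 134.6, 113.4 and 129.9 CPM with siCDO1C. Every siCDO1C library was above every siCDO1A library in this gene, and its log2 fold change was 0.36 (SE 0.0859, adjusted p = 0.102).

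Other lower genes were of several kinds. CCDC113, a gene of motile cilia, was at 10.01, 8.62 and 9.45 CPM with siCDO1A and 4.59, 4.34 and 5.78 CPM with siCDO1C, or -0.94 (SE 0.168, adjusted p = 0.0138). SLC25A30, a mitochondrial carrier, was at 36.8, 37.3 and 43.9 CPM and 20.97, 26.1 and 24.9 CPM, or -0.72 (SE 0.112, adjusted p = 0.0042). VMA21, an assembly factor of the proton pump of lysosomes, was at 51.9, 48.3 and 56.05 CPM and 25.1, 39.2 and 33.7 CPM, or -0.68 (SE 0.13, adjusted p = 0.0266). All 3 were lower than in siCtrl with siCDO1C, where the log2 fold change was -1.29 for CCDC113, -0.82 for SLC25A30 and -0.81 for VMA21. MDK, the growth factor midkine, was at 521, 530.1 and 436 CPM with siCDO1A, 279, 357 and 294 CPM with siCDO1C and 368, 373 and 398 CPM in siCtrl, and the siRNAs, on either side of the control, differed by -0.68 (SE 0.101, adjusted p = 0.00309). NKILA, a long noncoding RNA, had another pattern. It was at 13.5, 12.2 and 14.1 CPM with siCDO1A, 5.82, 6.54 and 9.16 CPM with siCDO1C and 5.07, 6.45 and 5.34 CPM in siCtrl, so that siCDO1A was the group far from siCtrl, and the siRNAs differed by -0.90 (SE 0.165, adjusted p = 0.0159). NKILA lies on chromosome 20 from 57710183 to 57712780 and overlaps the higher coordinates of PMEPA1 (57648392 to 57711536), which was also lower with siCDO1C, at -0.35 (SE 0.0754, adjusted p = 0.0496). The strand setting of the counting is not given in the sources used here, so that reads of this pair may not be separated.

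Of 38 androgen response genes, SLC45A3 and PMEPA1 were lower with siCDO1C and none was higher, with a median of -0.05. The median was -0.04 without siCDO1C replicate 2, and 4 were lower (SLC45A3, PMEPA1, STEAP4 and KLK2) and 3 higher (PTGER4, HPGD and KLK4). SLC45A3, a transporter of prostate epithelium, was at 176, 166 and 181 CPM in siCtrl, 328, 301 and 303 CPM with siCDO1A and 219.8, 224 and 238 CPM with siCDO1C. It was above siCtrl with both siRNAs and the siRNAs differed by -0.46 (SE 0.0794, adjusted p = 0.0114). None of 14 prostate luminal and VCaP markers was called (median 0.03). Without siCDO1C replicate 2, KLK2 was the only one called, and it was lower (median 0.02).

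Among the higher genes, PLEKHA3 (chromosome 2, 178480468 to 178516462), a lipid-binding protein of the Golgi, had the largest difference. It was at 15.3, 12.9 and 12.7 CPM with siCDO1A, 25.3, 29.3 and 25 CPM with siCDO1C and 25.6, 28.2 and 24.8 CPM in siCtrl. The siCDO1C libraries lay close to siCtrl, and the siCDO1A libraries were lower by 1.95-fold, a log2 fold change of 0.96 (SE 0.119, adjusted p = 0.000637) for siCDO1C against siCDO1A. GPR137B (chromosome 1, 236142505 to 236221865), a lysosomal membrane protein, was at 8.86, 8.69 and 10.6 CPM with siCDO1A and 20.1, 15.2 and 16.9 CPM with siCDO1C, or 0.89 (SE 0.143, adjusted p = 0.00534). MGAT4A (chromosome 2, 98619106 to 98731126), which branches N-glycans, was at 20.2, 21.1 and 25.4 CPM and 38.7, 34.01 and 41.8 CPM, or 0.77 (SE 0.115, adjusted p = 0.00309). In siCtrl, GPR137B was at 17.1, 17.4 and 17.1 CPM and MGAT4A at 43.2, 35.8 and 37.02 CPM, so that for both it was siCDO1A that lay below the control.

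MIGA1 (chromosome 1, 77779624 to 77879539), a mitochondrial outer membrane protein, was at 28.96, 30.3 and 31.9 CPM with siCDO1A, 52.1, 49.3 and 45.05 CPM with siCDO1C and 57.97, 57.7 and 54.3 CPM in siCtrl. The siRNAs differed by 0.68 (SE 0.097, adjusted p = 0.00218). TPM3 (chromosome 1, 154155304 to 154194648), a tropomyosin of the actin cytoskeleton, was at 118, 130.3 and 104 CPM with siCDO1A and 183, 197 and 175 CPM with siCDO1C, or 0.65 (SE 0.0908, adjusted p = 0.00195). RABGAP1 (chromosome 9, 122940833 to 123104866), a GTPase-activating protein, was at 82.8, 86.4 and 85.3 CPM and 134, 121 and 148 CPM, or 0.66 (SE 0.088, adjusted p = 0.00127). FSTL1 (chromosome 3, 120392293 to 120451253), a secreted glycoprotein, was at 167, 164 and 162 CPM and 231, 257 and 250.2 CPM, or 0.58 (SE 0.0789, adjusted p = 0.00162). NOV, a matricellular protein also called CCN3, was at 19.3, 22.6 and 19.8 CPM and 35.1, 35.1 and 36.6 CPM, or 0.79 (SE 0.103, adjusted p = 0.00118). TPM3 and PRDX1 have processed copies elsewhere in the genome, and their counts depend on how reads with several matches were handled.

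PAFAH1B2 (chromosome 11, 117144267 to 117176894), a subunit of platelet-activating factor acetylhydrolase, lay on opposite sides of the control. It was at 110.1, 108 and 102 CPM with siCDO1A, 143, 148 and 139 CPM in siCtrl and 176, 182 and 176 CPM with siCDO1C, with no overlap between any of the groups. The siRNAs differed by 0.74 (SE 0.0784, adjusted p = 0.00015). SLC24A2, a sodium, calcium and potassium exchanger, was at 26.99, 32.5 and 34.04 CPM with siCDO1A and 58.2, 39.8 and 58.9 CPM with siCDO1C, or 0.74 (SE 0.14, adjusted p = 0.0291). SLC7A14, a transporter-like lysosomal protein, was at 3.69, 3.83 and 3.50 CPM and 6.51, 6.16 and 7.01 CPM, or 0.83 (SE 0.178, adjusted p = 0.0493). ILKAP, a protein phosphatase, was at 0.77 (SE 0.125, adjusted p = 0.00607) and PLK2, a polo-like kinase, at 0.66 (SE 0.136, adjusted p = 0.0389). Cell division genes contributed 2 calls. CDK2 was the only one called of 29 genes of G1 control and E2F (median 0.00), at 0.63 (SE 0.104, adjusted p = 0.00707), and ANLN the only one of 53 mitosis genes (median 0.02), at 0.40 (SE 0.084, adjusted p = 0.0391). None of 57 DNA replication genes was called (median 0.00). Without siCDO1C replicate 2, CDKN2C was also called lower in the G1 list, and CDCA8 higher and TOP2A lower in the mitosis list. SDC2, a heparan sulfate proteoglycan, was the only called one of 35 genes of proteoglycan and glycosaminoglycan synthesis (median -0.01), at 0.57 (SE 0.0879, adjusted p = 0.0042). Without siCDO1C replicate 2, FAM20B was also called higher and B3GALT6 lower (median -0.02).

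Set side by side, the 38 higher genes had a median log2 fold change against siCtrl of -0.54 with siCDO1A and 0.01 with siCDO1C. The 31 lower genes had a median of 0.04 with siCDO1A and -0.44 with siCDO1C. Each siRNA group enters both its comparison with siCtrl and the direct comparison, so that these values are a description. ZDHHC20, a palmitoyltransferase, was above siCtrl with both siRNAs, by 0.33 with siCDO1A and 0.78 with siCDO1C. TBPL1 was above siCtrl by 0.68 with siCDO1C, while 0.11 with siCDO1A did not pass the test (adjusted p = 0.379).

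**Figure D5:**
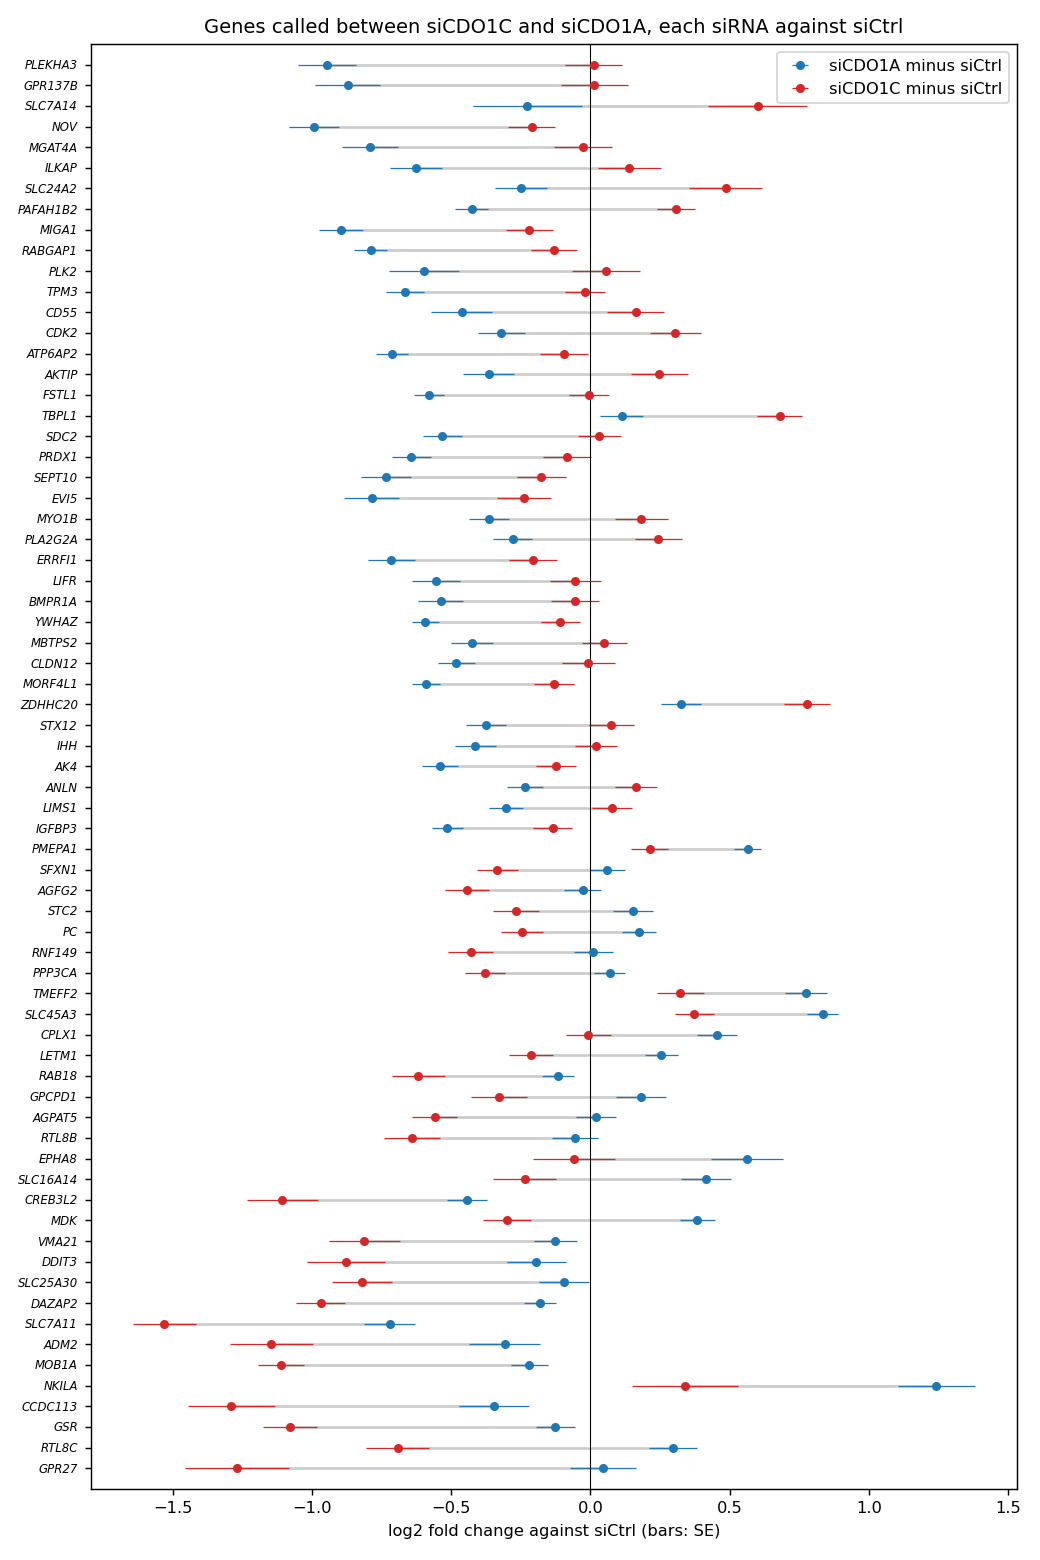
Log2 fold change against siCtrl (x axis, bars show the SE) of the 69 genes that differed between the siRNAs, ordered by siCDO1C minus siCDO1A with the highest on top. Blue points are siCDO1A and red points siCDO1C. In the upper 38 genes most blue points lie below 0 (median -0.54) with red near 0 (median 0.01). In the lower 31 genes the red points have a median of -0.44.

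The genes that the study names for both siRNAs were compared in the same way. CHPF, a chondroitin-polymerizing factor, was at 40.6, 43.3 and 43.04 CPM in siCtrl, 125, 118 and 107 CPM with siCDO1A and 113, 116 and 101 CPM with siCDO1C. Both siRNAs were far above the control, and they differed from each other by -0.09 (SE 0.0883, adjusted p = 0.943). HIPK3, a kinase gene, was at 79.1, 72.5 and 96.7 CPM with siCDO1A and 88.3, 67.8 and 92.7 CPM with siCDO1C, or -0.002 (SE 0.124, adjusted p = 1). F2R, a thrombin receptor, was at 52.1, 50.2 and 58.2 CPM with siCDO1A and 70.8, 67.2 and 67.7 CPM with siCDO1C. ALCAM, an adhesion molecule, was at 32.98, 36.3 and 34.8 CPM and 44.2, 47.4 and 45.2 CPM. In both genes every siCDO1C library was above every siCDO1A library, while the log2 fold changes of 0.35 (SE 0.0894, adjusted p = 0.125) for F2R and 0.39 (SE 0.0929, adjusted p = 0.0998) for ALCAM did not pass the test. Without siCDO1C replicate 2 they passed it, at 0.37 (adjusted p = 0.017) and 0.36 (adjusted p = 0.0308). That fit cannot separate the siRNA from the first principal component. TMEM254-AS1, annotated as antisense, was at 0.16 (SE 0.171, adjusted p = 0.945), UBTFL1, at 1.92 to 4.21 CPM, at 0.75 (SE 0.249, adjusted p = 0.338) and CDH2, N-cadherin, at 0.49 (SE 0.243, adjusted p = 0.678). Apart from SLC7A11, none of the genes named there passed the test between the siRNAs.

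The number of called genes depended on single libraries. Leaving out siCDO1A replicates 1, 2 or 3 gave 21, 18 and 24 genes, and leaving out siCDO1C replicates 1, 2 or 3 gave 23, 447 and 42. No called gene changed sign in any of these fits. In each of the 6, 13 genes were called, namely GPR27, RTL8C, GSR, MOB1A and DAZAP2 as lower and PLEKHA3, NOV, MGAT4A, PAFAH1B2, MIGA1, RABGAP1, TPM3 and FSTL1 as higher. Just inside the threshold were EPHA8, STC2, DDIT3 and PMEPA1 (each with an adjusted p of 0.0496), and just outside MESD (0.0584), DPY19L4 (0.0584) and CPNE4 (0.0589).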

How the data were processed

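RNA of VCaP cells was measured by poly(A) RNA-seq with strand-specific libraries, 3 for each of siCtrl, siCDO1A and siCDO1C. The submitters' processing notes name CASAVA, HISAT2 2.0.5 and hg38, and the paper names featureCounts. The authors deposited raw counts per gene without normalization, and these counts were used as deposited. The table also has 3 count columns that match no sample, which were used in no step.

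Genes were kept by filterByExpr (minimum count 10) over the 9 libraries, which left 15555 of 58735. Counts of the 6 libraries were normalized with TMM and tested with the quasi-likelihood test of edgeR 4.0.16 (R 4.3.3, robust) with Benjamini-Hochberg adjustment over all genes tested, and an adjusted p of at most 0.05 was called. Standard errors were derived from the fold change and the F statistic. CPM were computed with TMM over the 9 libraries. Each siRNA was fitted against siCtrl in the same way for values side by side. On simulated counts for siCDO1C against siCDO1A over 15555 genes, 99 of 100 genes with a log2 change of 1 were called, 88 of 100 with 0.5, and 14 without a change. CDO1 was compared with an exact permutation test (SciPy).

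The named genes are CDO1, the 12 highest and 12 lowest called genes whose groups do not overlap, called members of gene lists, genes called in every fit with 1 library left out, and the genes the study names. MDK, RTL8B, ZDHHC20, TBPL1, IGFBP3, genes listed with the 3′UTR words or at the threshold, and list members that were not called were named after their values were seen. The 38 gene lists were written by hand and matched by symbol. Members, lists and words were chosen with earlier results of these data known. List levels by library are medians of log2(CPM + 0.5). The 3′UTR sequences and the CDO1 transcript (CDO1-201) came from GENCODE transcripts, matched to the counts by gene identifier. They were not read by coordinates. Gene coordinates are those of the deposited table.

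The labels give a batch number equal to the replicate number, and by this label the numbers pair the samples. The deviations from the group means, over 11337 genes of at least 5 CPM, had Pearson correlations between siCDO1A and siCDO1C of -0.131, 0.124 and 0.372 for numbers 1 to 3, across genes that are not independent. The methods of the study name no block, so the main fit had none, and the block was an alternative. The other alternatives were RLE size factors, DESeq2 1.42.0, 1 fit of all 9 libraries, other filters on low counts, legacy=FALSE, protein-coding genes, removal of trends with GC content and length, a threshold of 0.01, and leaving out each library.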

Additional observations from a re-analysis of the deposited data

How the results depend on the processing

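The 69 called genes rested on the processing mainly through their number. It was 65 with RLE size factors and at least 10 counts in every library, 64 with the filter over the 6 siRNA libraries, 69 with legacy=FALSE and with protein-coding genes, and 87 with DESeq2. It rose to 128 with 1 fit of all 9 libraries, to 153 without a filter on low counts, to 121 with the replicate block, to 193 with trends with GC content and length removed and to 321 with these removed and the replicate block. At an adjusted p of 0.01 it was 24. Leaving out 1 library gave 18 (without siCDO1A replicate 2) to 447 (without siCDO1C replicate 2). The block lost no call, and the removal of GC and length trends lost 1, ATP6AP2. CDO1 kept its direction and stayed above the threshold in all these fits. Of the genes named in the text, HIPK3 changed sign, with log2 fold changes of 0.004 with RLE size factors and with DESeq2, 0.002 with all 9 libraries, 0.006 without a filter, and -0.089 to 0.141 with 1 library left out, none past the threshold. The cause of these shifts was not tested.

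For 3′UTR words, ACATCAA was lowest (-0.053 to -0.046) and GTAAAAC highest (0.028 to 0.034) over 9 settings added after seeing the data, all with 3′UTR trends removed and weighting. With neither step, GTAAAAC was first or second from the highest over 8 settings (0.042 to 0.105), while ACATCAA ran from place 1 (-0.039, GC content and length trends removed in the fit) to place 3517 from the lowest. Its difference was above 0 without siCDO1A replicate 3 (0.023) and without siCDO1C replicate 2 (0.014, place 582). In simulated counts, 88 of 100 genes with a change of 0.5 (log2) were called. That share is no detection rate for these libraries, since shifts of a whole library, as in siCDO1C replicate 2, were not tested there. With 1 library left out, the measured number of called genes ran from 18 to 447.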
